A study of Mus musculus with 6 samples.

Results

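Interferon-stimulated effector genes encode the antiviral and antiproliferative proteins that cells make in response to interferon. This account follows 55 such genes of the mouse, chosen by symbol: transcription factors of the response, the ISG15 modifier system, the IFIT and OAS families, other antiviral enzymes, interferon-induced GTPases, membrane proteins, PARP and ubiquitin enzymes, nuclear sensors of the Ifi200 family and a few others. Chemokines, the main cytosolic sensors and MHC genes were not included. Of the 55 genes, 44 had counts among the 10520 genes measured, and the other 11 (Herc6, Oas2, Ddx60, Mx1, Gbp7, Iigp1, Ifitm1, Trim30a, Sp100, Ifi44 and Xaf1) were not analysed here.

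All libraries came from E0771, a breast adenocarcinoma line of the C57BL/6 mouse strain, transduced with lentivirus, selected in puromycin and expanded as a population. The shControl group (3 libraries) carried the empty pLKO.5-puro vector, and the shLmna group (3 libraries) carried 1 short hairpin construct against Lmna, the gene of lamins A and C of the nuclear envelope, named shRNA4 in the library titles. Because the control had no hairpin, the knockdown and the presence of a hairpin cannot be told apart, nor can the target and this construct. RNA was counted by bulk MARS-seq, a 3′ end method in which each molecule carries a unique molecular identifier (UMI), and the labels do not say whether the libraries of a group came from separate cultures, so the p-values measure the spread between these libraries only.

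Interferons bind receptors at the cell surface that activate the kinases JAK1 and TYK2. These lead to the assembly of the factor ISGF3, which contains STAT2 and IRF9, and this complex binds interferon-stimulated response elements (ISRE) in the promoters of the effector genes. The response to type II interferon acts mainly through a different element, the gamma-activated site (GAS). Tumor cells often keep a low level of this program in culture without added interferon. No interferon treatment is given in the labels, and the question asked of the data was whether the level of each effector gene differed between the control cells and the Lmna knockdown cells.

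The libraries held between 1846208 and 3242051 UMIs. Lmna itself had 2066, 2794 and 1764 UMIs in shControl and 1035, 1023 and 713 in shLmna, a log2 fold change of -1.20 ± 0.13 (SE; edgeR's quasi-likelihood test, adjusted p = 3.55e-05), so the libraries matched their labels. Vim, a mesenchymal filament gene, had 10546 to 17461 UMIs, the luminal keratin Krt8 had 516 to 814, and neither passed the test (log2 fold change 0.18 and 0.07, adjusted p = 0.414 and 0.776). Of the other mesenchymal and epithelial markers, Pdgfrb rose (log2 fold change 0.74, adjusted p = 0.0457), a call lost on leaving out any 1 library (adjusted p up to 0.138), while luminal Epcam (-0.90, adjusted p = 0.0909) and basal Krt14 (-1.18, adjusted p = 0.0772) had groups that did not overlap, lower in shLmna, and did not pass. Of the 8 leukocyte markers listed, only Cd68, Lyz2 and Csf1r had counts, with a summed level of 15.9 to 19.2 CPM (counts scaled to a common library total) in shControl and 20.9 to 26.6 CPM in shLmna. The library titles name a plate and number the libraries, 13 to 15 for shControl and 16 to 18 for shLmna. The labels do not say what these numbers stand for, and an effect that follows them cannot be told apart from the knockdown. For these genes shLmna replicate 3 stood apart, with the lowest normalized count of the 6 libraries for 14 of the 38 tested genes (36.8%), against 17.2% of all tested genes.

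Calls among the effector genes went in both directions, the higher ones less stable and at a share nearer to that of all genes. Of the 44 genes with counts, 38 passed the filter on low counts and were tested. By edgeR's quasi-likelihood test at an adjusted p below 0.05, 7 fell in shLmna (Rsad2, Oasl1, Gbp2, Parp14, Gbp3, Isg15 and Ifitm3) and 5 rose (Uba7, Ifi204, Epsti1, Ifit2 and Lgals3bp). Of these calls, 4 lower and 0 higher ones held without each library in turn. The 7 lower genes are 18.4% of the 38 tested, against 5.78% of all 8969 genes tested, and the 5 higher genes are 13.2%, against 7.96% of all genes. Some called genes passed the filter through the group where they are high, Rsad2, Gbp2 and Gbp3 through shControl and Uba7 and Epsti1 through shLmna. By the same test without a filter, 6 fell and 4 rose, and the calls of Gbp3 (adjusted p = 0.0587) and Ifit2 (0.0553) were lost. The other 26 did not pass. Of these, 18 had a negative log2 fold change, some near 0 such as Trim25 and Trim21 (-0.05 each), and 8 a positive one. The share of negative values over all genes that did not pass was not worked out. The median log2 fold change of the 38 genes was -0.20, against 0.0033 over all genes, and 17 of the 38 (44.7%) had an unadjusted p below 0.05, against 28.4% of all genes. The genes were chosen with earlier results of these data known, so these shares are a description only.

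With the thresholds of the study's methods, a mean normalized count above 5 and an absolute log2 fold change above 1, added to edgeR's adjusted p below 0.05, 5 genes were lower (Oasl1, Rsad2, Gbp2, Gbp3 and Parp14) and 4 were higher (Uba7, Ifit2, Ifi204 and Epsti1). The shares over all genes were 1.74% lower and 3.97% higher. With DESeq2, the tool of the study, the same thresholds left 4 lower genes (Oasl1, Rsad2, Gbp2 and Parp14) and 1 higher gene (Ifi204), against 1.38% and 3.31% of all genes. Normalized counts of the groups did not overlap for 11 of the 38 genes on the lower side (28.9%, against 15.7% of all genes) and for 5 on the higher side (13.2%, against 16.8% of all genes). In bulk RNA, fewer expressing cells and less RNA per cell cannot be told apart. Without shLmna replicate 3, 4 genes were lower and 1 was higher, while the calls over all genes went from 1232 to 651.

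**Figure D1:**
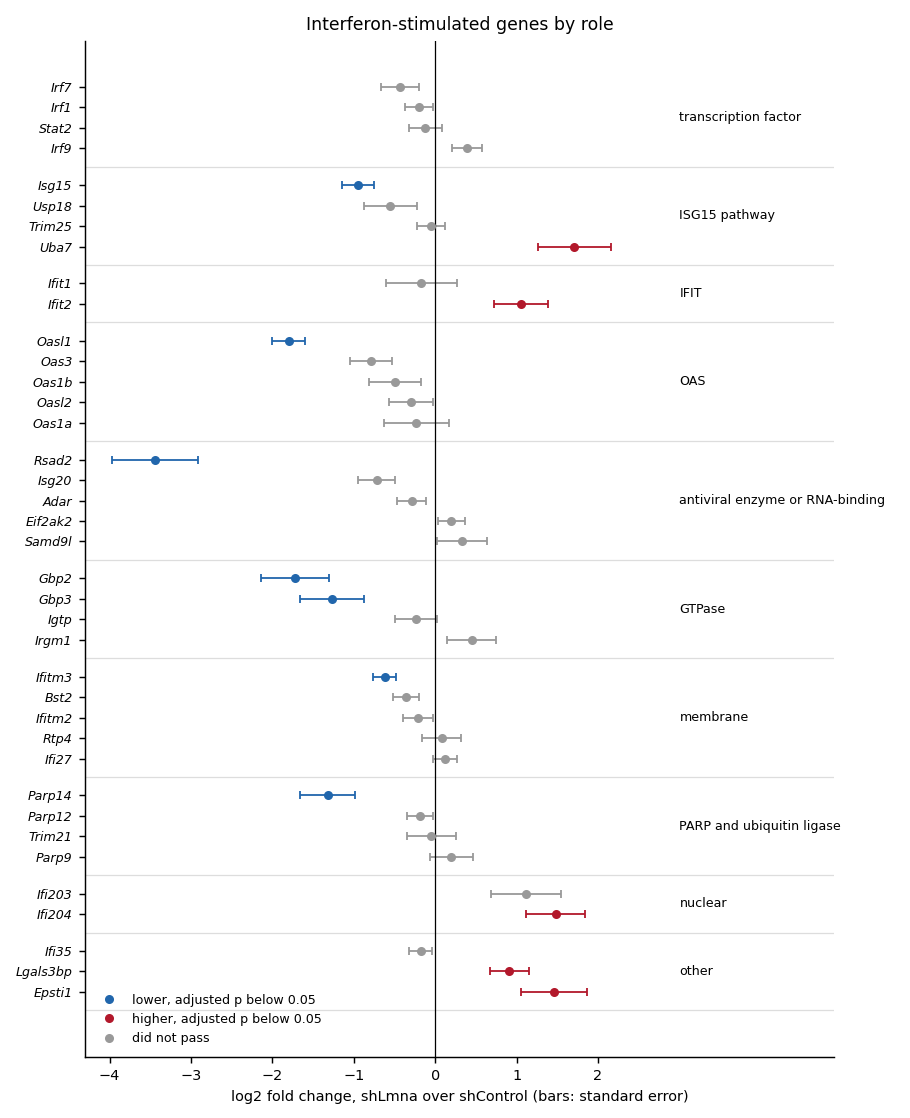
Log2 fold change (shLmna over shControl, x axis) of the 38 tested genes, grouped by role, with bars for the standard error. Blue points fell, red points rose and grey points did not pass the test, from Rsad2 at -3.44 to Uba7 at 1.71.

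The 4 transcription factors of the response did not pass the test. Irf7, the amplifier of type I interferon genes, had a log2 fold change of -0.43 (adjusted p = 0.234). Stat2, the ISGF3 subunit that carries the activation domain, had -0.12 (adjusted p = 0.742). Irf1, a factor induced mainly by type II interferon, had normalized counts of 151, 138 and 128 in shControl and 107, 132 and 124 in shLmna, with overlapping groups (log2 fold change -0.20, adjusted p = 0.462). Irf9, the DNA-binding subunit of ISGF3, had 114, 93.0 and 82.8 in shControl and 138, 134 and 108 in shLmna. The Irf9 groups overlapped, with the highest control library above the lowest knockdown library (log2 fold change 0.39, adjusted p = 0.174). These adjusted p-values are from edgeR's quasi-likelihood test over all genes, as are those that follow.

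In the ISG15 system the modifier was called lower and its activating enzyme higher, the enzyme on few and uncertain counts. Isg15, a ubiquitin-like protein that is conjugated to other proteins after interferon, is encoded at chr4:156199424-156200818 (GRCm38, minus strand). Its UMI counts were 322, 374 and 250 in shControl and 184, 222 and 78 in shLmna. Every knockdown library lay below every control library, and replicate 3 was the lowest. Scaled to equal library size, the mean was 305 ± 19.2 in shControl and 156 ± 49.9 in shLmna (SD, n = 3), a log2 fold change of -0.95 ± 0.20 (adjusted p = 0.00599). The call held without each library in turn. The stretches of 150 bases printed, each just before a start site, come from called genes with no annotated exon in that stretch. That of Isg15 carries the densest run of response element matches among the lower genes with a promoter sequence. Capitals mark 3 overlapping matches to the ISRE core, the letters GAAANNGAAA on either strand (RefSeq promoter, GRCm38.p6, chr4:156200819-156200968, minus strand, written 5′ to 3′).
Isg15: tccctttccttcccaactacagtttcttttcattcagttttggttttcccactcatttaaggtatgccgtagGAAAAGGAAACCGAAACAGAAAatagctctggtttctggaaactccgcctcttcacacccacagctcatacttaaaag

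Uba7, the E1 enzyme that activates ISG15 for conjugation, lies at chr9:107975505-107984060. It had 3, 4 and 3 UMIs in shControl and 11, 12 and 9 in shLmna. The groups did not overlap, at normalized means of 3.27 ± 0.54 and 10.8 ± 0.812 (SD, n = 3). Its log2 fold change of 1.71 ± 0.45 passed the test (adjusted p = 0.021), on 10 UMIs in the shControl and 32 in the shLmna libraries together. It passed the filter on low counts through the shLmna libraries, and in the fit without a filter the adjusted p was 0.041. The call was lost on leaving out any 1 library but shControl replicate 3 (adjusted p 0.0687 to 0.117). The 3′ end of Uba7 overlaps the predicted gene Gm20661 on the same strand, so its counts are uncertain. Usp18, the protease that removes ISG15 and also damps the type I receptor, had normalized counts of 80.3, 54.1 and 54.3 in shControl and 64.9, 43.0 and 16.9 in shLmna. Its groups overlapped and it did not pass (log2 fold change -0.55, adjusted p = 0.30). Trim25, a ubiquitin and ISG15 ligase that acts on the RNA sensor RIG-I, stood at 132, 167 and 157 in shControl and 140, 135 and 167 in shLmna, with overlapping groups (log2 fold change -0.05, adjusted p = 0.884).

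The IFIT proteins bind viral RNA that lacks the cap marks of host mRNA. Ifit2 (chr19:34550694-34576419) had 14, 12 and 14 UMIs in shControl and 35, 31 and 16 in shLmna. All knockdown libraries were above the controls after scaling, with replicate 3 nearest to them, at means of 13.5 ± 4.48 and 26.8 ± 5.68 (SD, n = 3). The log2 fold change was 1.05 ± 0.33 (adjusted p = 0.0483), close to the threshold. The call was lost without any 1 library but shControl replicate 3 (adjusted p 0.0689 to 0.232) and with a correction for GC content (0.102). Ifit1 had 6, 22 and 14 UMIs in shControl and 12, 18 and 6 in shLmna, with overlapping groups and a log2 fold change of -0.17 (adjusted p = 0.85). Ifit3 fell under the filter, with 8, 10 and 4 UMIs in shControl and 5, 4 and 1 in shLmna. Of the 951 windows of 50 bases in the 3′ end of Ifit3, 449 are shared with Ifit3b, so its counts are uncertain.

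The OAS family senses double-stranded RNA and, in its catalytic members, makes the oligoadenylates that activate RNase L. Oasl1, a member without that activity that represses Irf7 translation, is at chr5:114923240-114937915 and was the most significant of the 38 genes. It had 241, 235 and 124 UMIs in shControl and 67, 64 and 34 in shLmna. The lowest control library was far above the highest knockdown library after scaling, at 160 against 61.2. The means were 190.0 ± 36.3 and 54.2 ± 8.98 (SD, n = 3), a log2 fold change of -1.80 ± 0.20 or 3.47-fold (adjusted p = 3.62e-05), and the call held without each library in turn.

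The other OAS members did not pass. Oas3, a catalytic synthetase, had normalized counts of 78.4, 70.1 and 59.5 in shControl and 54.8, 38.5 and 24.6 in shLmna. Its groups did not overlap, and its log2 fold change of -0.79 ± 0.26 lay just outside the threshold (adjusted p = 0.0538, from 0.0218 to 0.18 over the alternatives). Oas1b had 36, 44 and 12 UMIs in shControl and 27, 19 and 15 in shLmna, with overlapping groups (log2 fold change -0.49, adjusted p = 0.353). Oasl2 had -0.30 (adjusted p = 0.518) and Oas1a had -0.23 (adjusted p = 0.756). Oas1a shares 554 of 951 windows of 50 bases in its 3′ end with Oas1g, so its counts are uncertain.

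**Figure D2:**
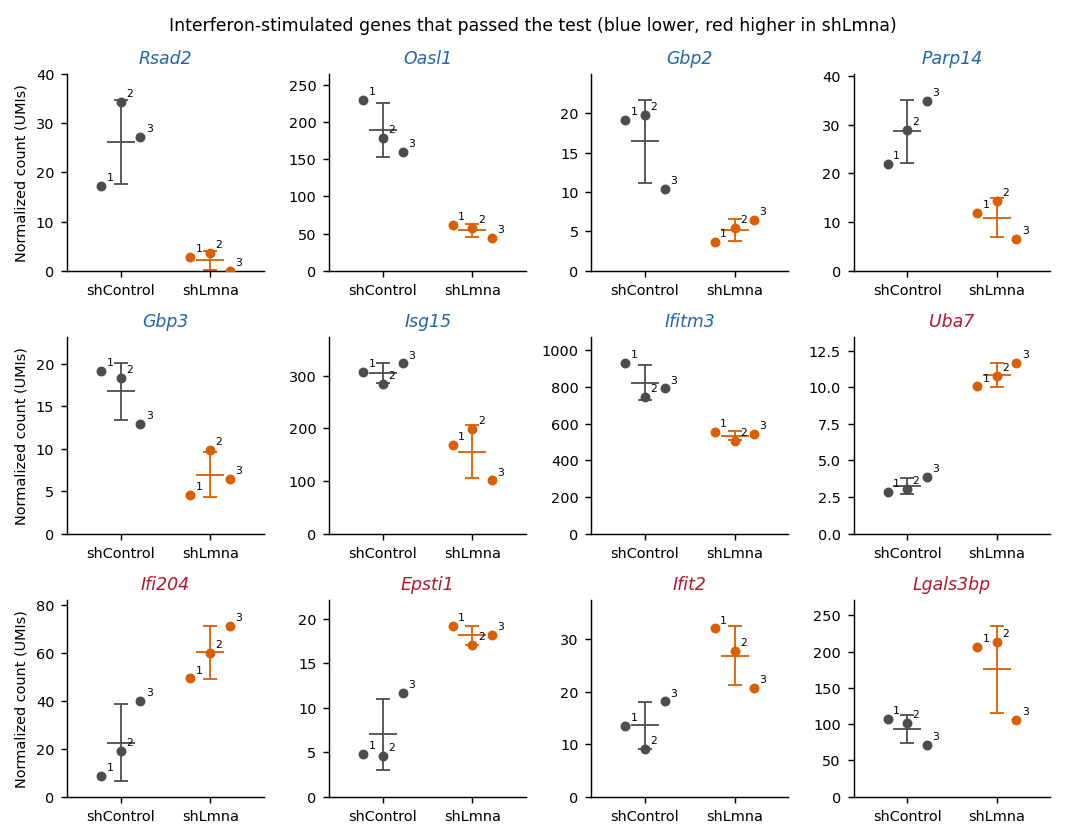
Normalized UMI count (y axis, from 0, a separate scale for each gene) in each library of the 12 genes that passed the test, blue for lower and red for higher in shLmna. Points are libraries numbered by replicate, horizontal lines are group means and bars are the SD (n = 3). The groups do not overlap in 11 panels, and in the Lgals3bp panel shLmna replicate 3 lies at the level of shControl replicate 1.

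Among the other antiviral enzymes, Rsad2 had the largest change of the tested effector genes. It encodes viperin, a radical SAM enzyme that makes a chain-terminating nucleotide from CTP. Rsad2 had 18, 45 and 21 UMIs in shControl and 3, 4 and 0 in shLmna, so it was close to undetected in all the knockdown libraries. The normalized means were 26.2 ± 8.59 and 2.11 ± 1.87 (SD, n = 3). The fitted log2 fold change was -3.44 ± 0.53, or 10.9-fold (adjusted p = 0.000631), and it ran from -3.95 to -3.01 without each library in turn, called each time. Its fold rests on 7 UMIs in shLmna. The stretch of 150 bases before the start of Rsad2, the gene that changed most, is shown as well. It holds 1 ISRE core match, in capitals (RefSeq, GRCm38.p6, chr12:26456453-26456602, minus strand, 5′ to 3′).
Rsad2: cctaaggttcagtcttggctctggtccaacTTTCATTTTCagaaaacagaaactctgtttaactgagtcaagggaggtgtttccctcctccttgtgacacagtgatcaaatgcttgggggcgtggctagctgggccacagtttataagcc

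Cmpk2, the kinase gene next to Rsad2 that supplies nucleotide triphosphates, was under the filter. It had 10, 8 and 14 UMIs in shControl and 8, 13 and 5 in shLmna, and its groups overlapped, while those of Rsad2 did not. Isg20, an exonuclease that degrades RNA, had normalized counts of 69.8, 70.9 and 88.0 in shControl and 36.6, 60.0 and 40.2 in shLmna. The groups were apart, and the log2 fold change of -0.72 ± 0.23 lay just outside the threshold (adjusted p = 0.0514, from 0.0238 to 0.159 over the alternatives). Eif2ak2, the kinase PKR that halts translation when double-stranded RNA is present, had 97.5, 103 and 99.6 in shControl and 131, 111 and 102 in shLmna. Its groups overlapped (log2 fold change 0.20, adjusted p = 0.479). Adar, the enzyme that edits adenosine to inosine in double-stranded RNA, had 139, 155 and 131 in shControl and 136, 117 and 92.1 in shLmna, again with overlap (log2 fold change -0.29, adjusted p = 0.311). Samd9l, a restriction factor, had a log2 fold change of 0.33 (adjusted p = 0.525). Zbp1, a Z-nucleic acid sensor, had 6, 1 and 2 UMIs in shControl and 1 in each shLmna library, and was not tested.

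Interferon-induced GTPases attack the vacuoles of intracellular pathogens. Gbp2 and Gbp3 are guanylate-binding proteins, lie close together on chromosome 3 (chr3:142620602-142638008 and chr3:142560026-142573209) and both fell. Gbp2 had 20, 26 and 8 UMIs in shControl and 4, 6 and 5 in shLmna, at normalized means of 16.4 ± 5.28 and 5.17 ± 1.42 (SD, n = 3). Its log2 fold change was -1.72 ± 0.42 (adjusted p = 0.0142). Gbp3 had 20, 24 and 10 UMIs in shControl and 5, 11 and 5 in shLmna, at means of 16.8 ± 3.36 and 6.97 ± 2.67. Neither gene's groups overlapped, although both shControl replicate 3 values were nearer to the knockdown than the other controls were. The log2 fold change of Gbp3 was -1.27 ± 0.39 (adjusted p = 0.044). Both calls were lost without shControl replicate 1 or 2 or shLmna replicate 1 or 3, with adjusted p of 0.0521 to 0.105 for Gbp2 and 0.143 to 0.178 for Gbp3. Their ISRE core matches stand just before the RefSeq start site (GENCODE starts the first exon of Gbp2 earlier, within the window printed), and windows of 30 bases around them are given in the direction of the gene with the matches in capitals (RefSeq, GRCm38.p6).
Gbp2 (chr3:142620594-142620623, plus strand): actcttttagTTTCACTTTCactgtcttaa
Gbp3 (chr3:142559992-142560021, plus strand): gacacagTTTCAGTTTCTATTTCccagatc

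The immunity-related GTPases did not pass. Igtp had a log2 fold change of -0.24 (adjusted p = 0.599). Irgm1, a regulator of the other members, had 28, 41 and 47 UMIs in shControl and 52, 76 and 30 in shLmna, with overlapping groups and a log2 fold change of 0.45 (adjusted p = 0.366). Ifi47 had 1, 6 and 3 UMIs in shControl and 6, 3 and 2 in shLmna, and was not tested. Mx2, a dynamin-like antiviral GTPase, was also under the filter, with 8, 14 and 6 UMIs in shControl and 4, 3 and 1 in shLmna. Its groups did not overlap, and in the fit without a filter its log2 fold change was -1.69 (adjusted p = 0.0705).

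The 4 effector genes with the highest mean normalized counts encode membrane proteins. Ifitm3, which blocks fusion of viruses with endosomes, is encoded at chr7:141009586-141010770. It had 976, 982 and 613 UMIs in shControl and 606, 566 and 420 in shLmna, at normalized means of 825 ± 96.4 and 535 ± 25.0 (SD, n = 3). The groups did not overlap and the knockdown libraries lay close together. The fall was modest, with a log2 fold change of -0.62 ± 0.14 or 1.54-fold (adjusted p = 0.00852), and the call held without each library in turn. Its ISRE core matches lie after the start site, within the first exon (RefSeq, GRCm38.p6).
Ifitm3 (chr7:141010714-141010743, minus strand): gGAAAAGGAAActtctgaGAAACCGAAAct

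Bst2, the tetherin that holds budding virions at the cell surface, was the most abundant effector gene and did not pass. Its normalized counts were 1359, 1349 and 1404 in shControl and 1108, 1271 and 823 in shLmna. The groups did not overlap, with replicate 3 lowest, and the log2 fold change was -0.36 ± 0.16 (adjusted p = 0.149). Ifitm2, a paralog of Ifitm3, had 652, 508 and 498 in shControl and 599, 371 and 460 in shLmna. Its groups overlapped (log2 fold change -0.21, adjusted p = 0.471), and 219 of 606 windows of 50 bases in its 3′ end are shared with Gm45717, so its counts are uncertain. Ifi27 had 299, 354 and 358 in shControl and 344, 326 and 433 in shLmna, with overlapping groups (log2 fold change 0.12, adjusted p = 0.654). Rtp4, a receptor chaperone, had a log2 fold change of 0.08 (adjusted p = 0.874).

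**Figure D3:**
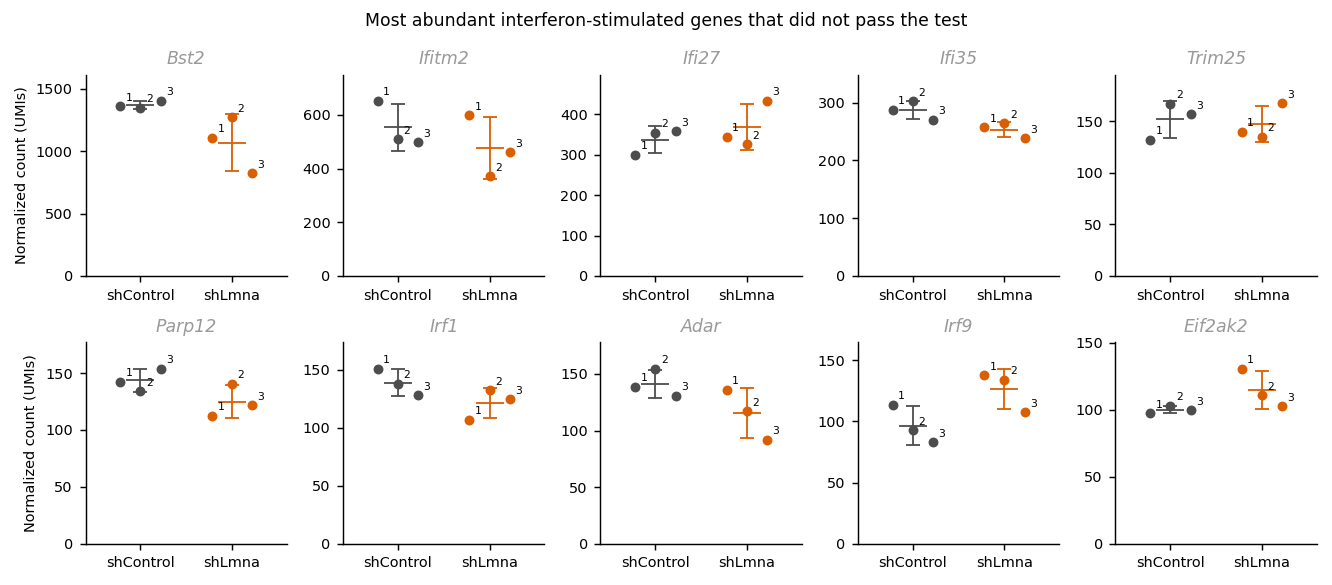
Normalized UMI count (y axis, from 0, a separate scale for each gene) in each library of the 10 most abundant effector genes that did not pass the test. Points are libraries numbered by replicate, horizontal lines are group means and bars are the SD (n = 3). The groups overlap in all panels but Bst2 and Ifi35.

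Among the PARP and ubiquitin enzymes, Parp14 fell and the others did not pass. Parp14, a mono-ADP-ribosyltransferase at chr16:35832874-35871544, had 23, 38 and 27 UMIs in shControl and 13, 16 and 5 in shLmna. The groups did not overlap, with shLmna replicate 3 lowest, at normalized means of 28.6 ± 6.47 and 10.9 ± 4.01 (SD, n = 3). Its log2 fold change was -1.32 ± 0.34 (adjusted p = 0.0191), and the call was lost without shControl replicate 2 or shLmna replicate 1 or 3 (adjusted p 0.0551 to 0.0908). Parp12, another member of the PARP family, had normalized counts of 142, 134 and 154 in shControl and 112, 141 and 122 in shLmna. Its groups overlapped (log2 fold change -0.19, adjusted p = 0.477). Parp9 and its partner Dtx3l form an ADP-ribosylating ubiquitin ligase complex. Parp9 had a log2 fold change of 0.20 (adjusted p = 0.667), and Dtx3l, with 10, 12 and 5 UMIs in shControl and 8, 5 and 9 in shLmna, was not tested. Trim21, an intracellular antibody receptor and ubiquitin ligase, had a log2 fold change of -0.05 (adjusted p = 0.938).

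The Ifi200 family binds DNA in the nucleus and cytosol. Ifi204, which takes part in sensing DNA upstream of STING, is at chr1:173747293-173766943 and had the most UMIs of the genes that rose after Lgals3bp. It had 9, 25 and 31 UMIs in shControl and 54, 67 and 55 in shLmna. The groups did not overlap, but the control libraries differed among themselves more than the knockdown libraries did, at 8.61, 19.1 and 40.1 after scaling. The means were 22.6 ± 16.04 and 60.2 ± 11.0 (SD, n = 3), and the log2 fold change was 1.48 ± 0.36 (adjusted p = 0.0142). Without shControl replicate 2 the adjusted p was 0.105, and without shLmna replicate 3 it was 0.0838. Ifi203, of the same family, had 6, 5 and 6 UMIs in shControl and 14, 15 and 7 in shLmna. Its groups did not overlap and it did not pass (log2 fold change 1.11 ± 0.43, adjusted p = 0.0994).

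The remaining genes have less defined roles. Epsti1 (chr14:77904239-78002657), a gene first known from the contact of epithelial and stromal cells, had 5, 6 and 9 UMIs in shControl and 21, 19 and 14 in shLmna. The knockdown libraries were all higher and closer to each other, at normalized means of 7.00 ± 4.02 and 18.1 ± 1.09 (SD, n = 3). The log2 fold change was 1.46 ± 0.41 (adjusted p = 0.0263), and the call was lost without any 1 library but shControl replicate 3 (adjusted p 0.0623 to 0.174). Its upstream stretch is shown as an example from the higher genes, and the stretches printed do not stand for their groups. The promoter window of Oasl1, which fell, held no ISRE core match, and that of Ifi203, which did not pass, held 1. The 150 bases of Epsti1 hold no ISRE core match and so no capitals (RefSeq, GRCm38.p6, chr14:77904089-77904238, plus strand, 5′ to 3′).
Epsti1: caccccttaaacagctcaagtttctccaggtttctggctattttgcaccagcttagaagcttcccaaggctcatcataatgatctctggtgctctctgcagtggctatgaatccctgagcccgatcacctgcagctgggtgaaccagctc

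Lgals3bp, a secreted glycoprotein that binds galectins, is at chr11:118392751-118402092. It had 112, 133 and 55 UMIs in shControl and 226, 239 and 82 in shLmna. It was the one gene past the test whose groups overlapped, since shLmna replicate 3 (106 after scaling) was level with shControl replicate 1 (107). The means were 93.2 ± 19.3 and 176 ± 60.1 (SD, n = 3), and the log2 fold change was 0.91 ± 0.24 (adjusted p = 0.0206). The call was lost without shControl replicate 2 or shLmna replicate 1 or 2 (adjusted p 0.0854 to 0.107). Ifi35, a partner of the interferon-induced protein NMI, had normalized counts of 288, 303 and 270 in shControl and 258, 264 and 239 in shLmna. The groups did not overlap, at a small difference that did not pass (log2 fold change -0.18, adjusted p = 0.435).

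**Figure D4:**
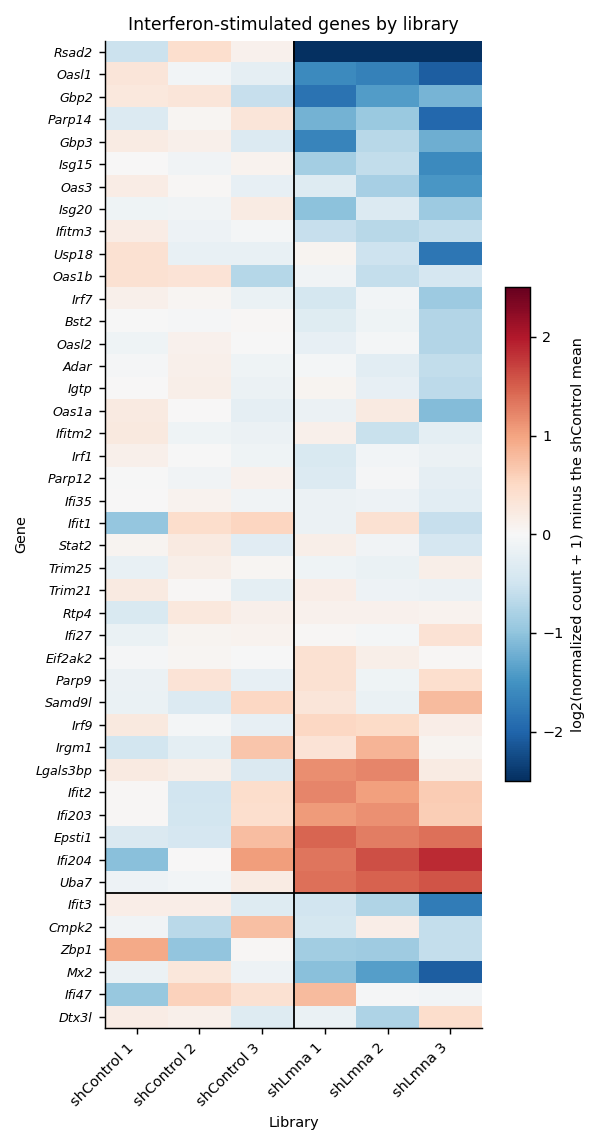
Each row is 1 of the 44 genes with counts and each column 1 library, with color for log2(normalized count + 1) minus the shControl mean, clipped at 2.5 in either direction. Rows are ordered by log2 fold change, and the 6 genes under the filter are below the line. The lower genes are blue in all the shLmna columns at the top, the higher genes are red at the bottom, and most of the rows between are pale with replicate 3 often the bluest.

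Summed over the 44 genes, the effector transcripts made up 2362, 2243 and 2245 CPM in shControl and 1987, 1949 and 1679 CPM in shLmna. The 7 lower genes together went from 635, 539 and 559 CPM in shControl to 331, 326 and 291 CPM in shLmna, and the 5 higher genes from 56.1, 56.3 and 59.4 CPM to 130, 135 and 93.6 CPM. These sums follow from how the 7 and 5 were chosen and are a description only. By amount, the lower side was carried by Ifitm3, Isg15 and Oasl1. Among the higher genes, Lgals3bp had the most UMIs.

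Few of the genes that carry the interferon signal passed the test, as was the case over all genes. Of a list of 40 ligands, receptors, kinases, STATs, IRFs and inhibitors, 30 had counts and 28 were tested. The interferon ligand genes of the list were not analysed here. By edgeR's quasi-likelihood test 1 of the 28 rose, none fell and 27 did not pass, against 7.96% of all genes higher and 5.78% lower, with a median log2 fold change of 0.04. With the correction for GC content Ptpn2, a phosphatase of the JAK kinases, was also called, its log2 fold change going from -0.22 (adjusted p = 0.415) to -0.89 (adjusted p = 0.0039). Ptpn6, the phosphatase SHP-1 that opposes JAK signaling, had 122, 159 and 73 UMIs in shControl and 305, 240 and 113 in shLmna. Its groups did not overlap (log2 fold change 0.95 ± 0.21, adjusted p = 0.00892), and the call was lost without shLmna replicate 1 (adjusted p = 0.0651).

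Ifnar1, a chain of the type I receptor, had 18, 19 and 5 UMIs in shControl and 22, 31 and 24 in shLmna. The Ifnar1 groups did not overlap after scaling, and the gene did not pass (log2 fold change 0.97 ± 0.35, adjusted p = 0.0812). The other chain, Ifnar2, had a log2 fold change of -0.42 (adjusted p = 0.301). The kinases Jak1 and Tyk2 had 0.34 (adjusted p = 0.199) and 0.23 (adjusted p = 0.593).

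Promoter sequences were read for 35 of the 44 effector genes from RefSeq (GRCm38.p6), over 250 bases before and 50 after each start site. The ISRE core GAAANNGAAA, searched on both strands, was found in 17 of the 35 genes (48.6%), against 3.42% of the 6928 tested genes with a promoter and 3.44% of all 32851 promoters. Among the called genes, Parp14 (lower) and Ifi204 (higher) had no promoter sequence and are left out of these shares. By direction, 5 of 6 lower genes had a match (Isg15, Rsad2, Gbp2, Gbp3 and Ifitm3, but not Oasl1), against 0 of 4 higher genes (Uba7, Ifit2, Epsti1 and Lgals3bp). Among the genes that did not pass it was 11 of 21. Over all genes, 3.76% of the lower and 4.50% of the higher genes had a match. These counts are small and were not tested, a match is only a match of letters, and its absence says only that these letters are not in the window.

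**Figure D5:**
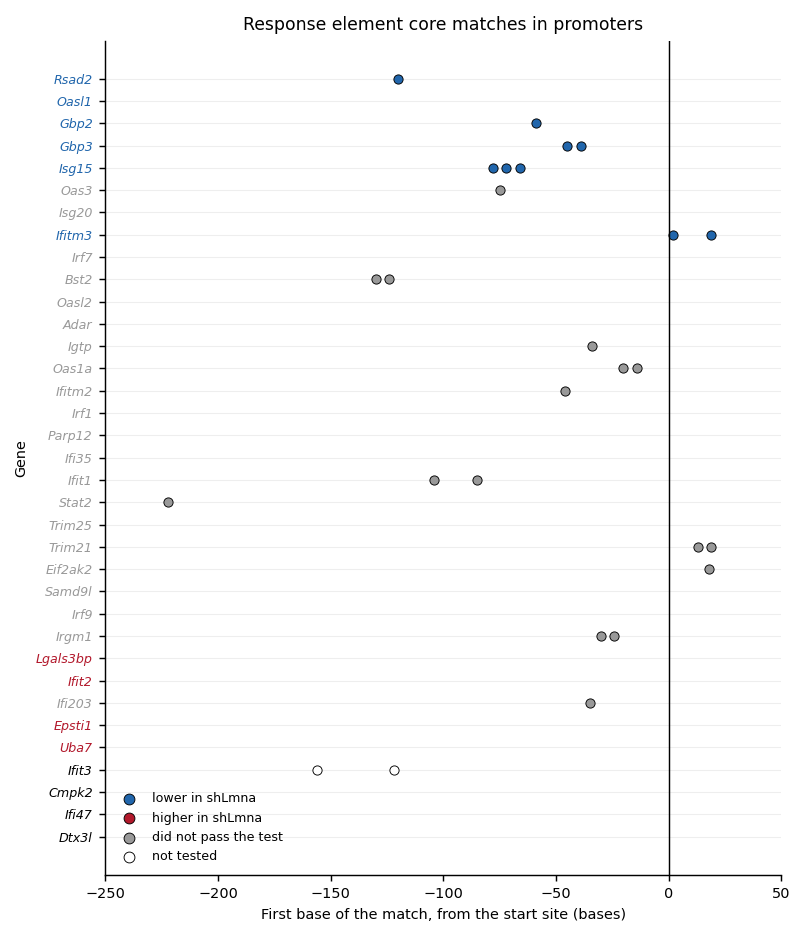
Position of each ISRE core match (x axis, first base of the match in bases from the start site) for the 35 effector genes with a promoter sequence, 1 row per gene. Blue points belong to lower genes, grey to genes that did not pass and white to genes not tested. The Uba7, Ifit2, Epsti1 and Lgals3bp rows are empty, and the matches of the lower genes lie between -120 and 19 bases from the start.

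Genes that did not pass carried the same letters. Windows of 30 bases around the matches of Bst2, Oas3 and Ifit1 are set out for comparison with those of the lower genes, in the direction of each gene and with the matches in capitals.
Bst2 (chr8:71537580-71537609, minus strand): attccagGAAAATGAAACTGAAAggctgca
Oas3 (chr5:120777715-120777744, minus strand): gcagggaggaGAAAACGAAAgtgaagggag
Ifit1 (chr19:34640785-34640814, plus strand): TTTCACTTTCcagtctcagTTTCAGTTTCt

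The GAS letters TTCNNNGAA, searched on both strands, were in 10 of the 35 genes (28.6%), against 7.87% of the tested genes and 8.3% of all promoters. They occurred in 1 of 6 lower genes (Ifitm3) and in 1 of 4 higher genes (Ifit2). Among the genes that did not pass they were in 8 of 21, Irf1 and Isg20 among them. In Bst2 and Ifitm3 the GAS and ISRE matches overlap.

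The counted 3′ ends had a median GC content of 46.0% for the 7 lower genes, 40.3% for the 5 higher genes and 46.9% for those that did not pass, against 49.6% and 44.3% for all lower and all higher genes. With a correction for GC content, 11 of the 12 calls held and Ifit2 was lost. Lyz2, a myeloid marker, rose as well (log2 fold change 1.28 ± 0.30, adjusted p = 0.011) with 10, 23 and 13 UMIs in shControl and 42, 35 and 29 in shLmna, while Cd68 did not pass (log2 fold change -0.62, adjusted p = 0.234). The part of base composition and of other cells in the results was not tested.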

How the data were processed

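The authors prepared the libraries from bulk RNA by MARS-seq. Per the labels, cutadapt, STAR 2.4.2a, HTSeq and DESeq2 were among the tools and mm10 was the build, and the strand of counting is not given in the sources used here. The deposited counts are UMIs per gene, not normalized, and a batch-corrected table and the authors' own comparison table (fold changes and p-values) were not used.

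Genes were tested with edgeR 4.0.16 in R 4.3.3 (quasi-likelihood test, TMM scaling, filterByExpr with a minimum count of 10), shLmna against shControl with no covariate, and p-values were adjusted by Benjamini-Hochberg over 8969 genes. The SE of a log2 fold change was derived from the test itself. It is the absolute log2 fold change divided by the square root of the quasi-likelihood F statistic. A normalized count is a UMI count scaled to the mean effective library size. UMI counts of 3′ ends do not depend on gene length. An exact permutation test of 3 against 3 libraries cannot go below 0.1, so no such test was used. Replicates differed beyond counting noise (chi-square per degree of freedom 5.515 to 9.024) and all 6 were kept.

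The genes, their roles and the lists of signaling and marker genes were chosen with earlier results of these data known. Library counts are printed for genes past the threshold, for the 10 most abundant others for genes under the filter and for Lmna, Ptpn6 and Ifnar1 of the comparison lists, and the rest by log2 fold change; library values of Usp18, Ifit1, Oas3, Oas1b, Isg20, Irgm1, Ifi203 and the marker Lyz2 were added after their values were seen. Positions and 3′ ends (the last 1000 bases) come from GENCODE, and promoters from RefSeq. DESeq2 1.42.0, limma-voom 3.58.1, other scalings and filters, thinning, a replicate block and leaving out each library were alternatives. A GC correction, the study's thresholds with DESeq2, and the naming of Ptpn2, Pdgfrb, Epcam and Krt14 were chosen after seeing the data. Values of 1 gene of the signaling list are not reported here. The script was tested on simulated data.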

Additional observations from a re-analysis of the deposited data

How the results depend on the processing

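Of the 12 calls, those of Isg15, Oasl1, Rsad2 and Ifitm3 held without each library in turn, and none of the 5 higher calls did. Leaving out 1 library gave 4 to 8 lower effector genes (7 with all libraries) and 0 to 6 higher ones (5 with all libraries). No higher gene was called without shControl replicate 2. Calls over all genes ran from 540 without that library to 1580 without shControl replicate 3, against 1232 with all 6. The single call of the signaling list ran from 0 to 1. DESeq2 called 2 higher effector genes, thinning to the smallest library 2, and keeping genes with a mean count of at least 50 gave 3 lower and 1 higher effector genes and 779 calls over all genes, with Rsad2 and 7 other called genes left out of the test or not called. The thresholds of the study gave 512 calls over all genes with edgeR, and with DESeq2 421, of which 4 were lower and 1 higher effector genes. The GC correction gave 2 calls in the signaling list, and 3 together with the replicate block. Over all genes the split of 518 lower and 714 higher calls became 772 and 727 with the GC correction, 732 and 664 with that and the block, and 420 and 793 when scaled to library totals. The cause of these changes was not tested, apart from the fewer genes or libraries that some alternatives hold.

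Some small fold changes crossed 0. Scaled to library totals, the log2 fold change of Trim25 was 0.00 and that of Trim21 0.00. Without 1 library in turn the log2 fold change ran from -0.28 to 0.00 for Stat2, -0.15 to 0.03 for Trim25, -0.55 to 0.06 for Ifit1, -0.55 to 0.03 for Oas1a, -0.01 to 0.20 for Ifi27, -0.11 to 0.24 for Rtp4 and -0.18 to 0.06 for Trim21. None of these genes passed the test.

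The labels number the replicates 1 to 3 in both groups and do not say whether the numbers mark pairs. Same-numbered libraries deviated together for replicate 1 (correlation 0.3517) but not for replicates 2 and 3 (-0.1148 and 0.0052). A pairing by number is thus neither shown nor excluded. With the replicate block 8 effector genes were lower, 4 were higher and 1350 genes were called in all, the signaling list kept 1 call, and the log2 fold change of Lmna was -1.19. Gbp3 (adjusted p = 0.0531) and Ifit2 (0.058) lost their calls under the block, and Oas3 (0.0246) and Isg20 (0.0464) gained one. Depth limits the genes with few UMIs: 6 were not tested, and the fold of Uba7 rests on 10 UMIs in shControl.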
